A study of Homo sapiens with 2 samples.

Results

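The genes examined were 41 genes of the ATF4 stress response and of cytosolic protein synthesis, namely stress-induced transcription factors, their feedback regulators, enzymes of serine, proline, asparagine, alanine, sulfur and one-carbon metabolism, inhibitors of mTORC1, secreted proteins and a receptor, and 13 cytosolic aminoacyl-tRNA synthetases. They were taken from a list of gene symbols that was drawn up with earlier results of these data known, and all 41 were found among the 41582 gene symbols of the table. RNA had been sequenced from U87, a long-established glioblastoma cell line of human origin, labelled wild type and grown in RPMI with serum, after 72 h of treatment with DMSO, the solvent, or with the curcumin analog CCA-1.1. There was 1 library per group, so the differences described here could not be checked against replicates and have no p-values. The concentration of CCA-1.1 in the sequenced culture is not given in the sources used here, and a single cell line and a single time point limit what the libraries represent.

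The integrated stress response is a common pathway by which cells answer amino acid shortage, endoplasmic reticulum (ER) stress, haem shortage or double-stranded RNA. Its kinases phosphorylate the translation factor eIF2alpha, which lowers protein synthesis in general and raises translation of the mRNA of ATF4. ATF4, paired with C/EBP proteins, then binds composite elements near genes for amino acid synthesis, amino acid uptake and tRNA charging, and it induces DDIT3 (CHOP), TRIB3 and other factors that shape or end the response. ATF4 is regulated largely through translation, so the level of its mRNA is not a measure of its protein. In bulk RNA, fewer cells that express a gene and less RNA of it per cell cannot be told apart.

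Letters of the ATF4 composite element were looked for in the 250 bases upstream of the start sites of these genes, because it is the known DNA target of ATF4. The letters were TGATGNAA, searched on both strands in RefSeq promoters of GRCh38.p14, and 32 of the 41 genes had an entry in the promoter table. The element was found in 8 of these 32 genes (25.0%). It was found in 2.53% of the 9900 protein-coding genes that had an entry and a mean of at least 1 TPM. TPM is a transcript abundance corrected for length and library size. Of all 35116 promoter windows, 3.14% held the element. The members were listed as genes of the ATF4 response, so a higher share among them is not an independent result. The matches follow, 5′ to 3′ on the strand of the gene, with the match in capitals; where the capitals read TTGCATCA or TTTCATCA, the element lies on the opposite strand. Distances run to the start site of the window, which for ASNS, CEBPG and GARS1 is not the outermost start of the gene. The start sites were not matched to the transcript that held most of the TPM of a gene.

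AARS1, chr16:70289675-70289704, 180 bases upstream: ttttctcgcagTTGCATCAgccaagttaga
ASNS, chr7:97872458-97872487, 61 bases upstream: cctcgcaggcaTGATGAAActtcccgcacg
ATF3, chr1:212565205-212565234, 184 bases upstream: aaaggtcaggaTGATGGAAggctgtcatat
CEBPG, chr19:33374060-33374089, 35 bases upstream: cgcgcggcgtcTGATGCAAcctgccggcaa
CHAC1, chr15:40953251-40953280, 202 bases upstream: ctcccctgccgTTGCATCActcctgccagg
GARS1, chr7:30594834-30594863, 26 bases upstream: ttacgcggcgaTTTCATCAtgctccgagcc
IARS1, chr9:92293698-92293721, 6 bases upstream: ttttcagcgcgTTGCATCAcctcc
PPP1R15B, chr1:204412026-204412055, 220 bases upstream: cccgccccggcTGATGCAAcctcacgctgc

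Read on its own strand, the element was spelled TGATGCAA in 5 genes (AARS1, CEBPG, CHAC1, IARS1 and PPP1R15B), TGATGAAA in 2 genes (ASNS and GARS1) and TGATGGAA in ATF3. The cAMP response element TGACGTCA, read the same on both strands, was found in PPP1R15A among the 32 genes, 51 bases upstream of its start, and in 3.53% of the 9900 genes. The ER stress element (CCAAT and CCACG with 9 bases between them) was in none of the 32 genes and in 0.16% of the 9900. No match of the composite element overlapped a match of the others. A match is a description of the letters and was not tested for binding, and sites outside these windows were not looked for.

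The levels of the 41 genes spanned more than 4 orders of magnitude, with 15 genes at a mean of at least 100 TPM, 21 genes between 10 and 100 TPM, 4 genes between 1 and 10 TPM, and CBS at 0.1 TPM under DMSO and 0.11 under CCA-1.1. Since TPM corrects for transcript length, these levels can be compared between genes. GDF15 had the highest level in both libraries. In sum, the 41 genes held 5061 TPM under DMSO and 5918 TPM under CCA-1.1, and GDF15 alone made up 56.8% of this difference. Without GDF15, the sums were 3950 and 4320 TPM, a ratio of 1.09.

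**Figure D1:**
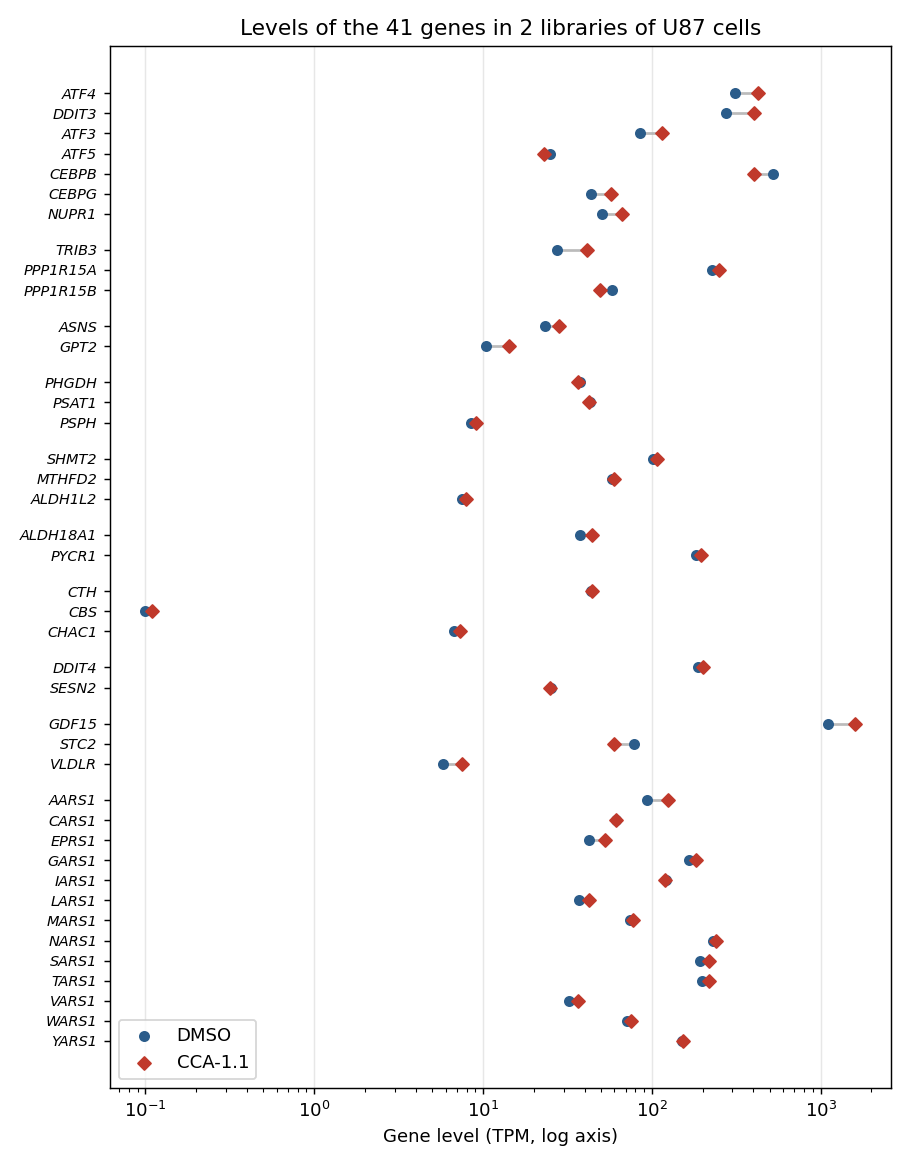
Levels of the 41 genes in TPM on a log axis, with circles for the DMSO library and diamonds for the CCA-1.1 library, 1 library each; gaps separate the functional groups. The pairs lie farthest apart for DDIT3, TRIB3 and GDF15, while most enzymes and synthetases have nearly coinciding symbols.

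The difference of a gene is the log2 value of its TPM + 1 under CCA-1.1 minus that under DMSO, and this scale makes changes at low TPM look smaller. Where a pair of levels is given, the DMSO library comes first. A gene was counted as higher or lower when it passed 1.3-fold on this scale, a difference of 0.3785. Of the 40 genes whose mean was at least 1 TPM, 9 were higher in the CCA-1.1 library by more than 1.3-fold and 0 were lower by as much. Of all 12041 protein-coding genes above the same minimum, 4.39% were higher and 3.09% were lower by this rule. The 9 genes were ATF4, DDIT3, ATF3, CEBPG, NUPR1, TRIB3, GPT2, GDF15 and AARS1. None of the 40 passed 2-fold in either direction, as 0.149% (higher) and 0.191% (lower) of the protein-coding genes did. The median difference was 0.10 over the 40 genes and 0.0168 over the 12041 genes. Several genes lay close to the 1.3-fold line: CEBPG (0.3837) and NUPR1 (0.3844) were just past it, and CEBPB (-0.3763) and STC2 (-0.3748) were just short of it on the other side. CEBPG and NUPR1 were no longer past it with median-ratio scaling, under which CEBPB and STC2 were.

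**Figure D2:**
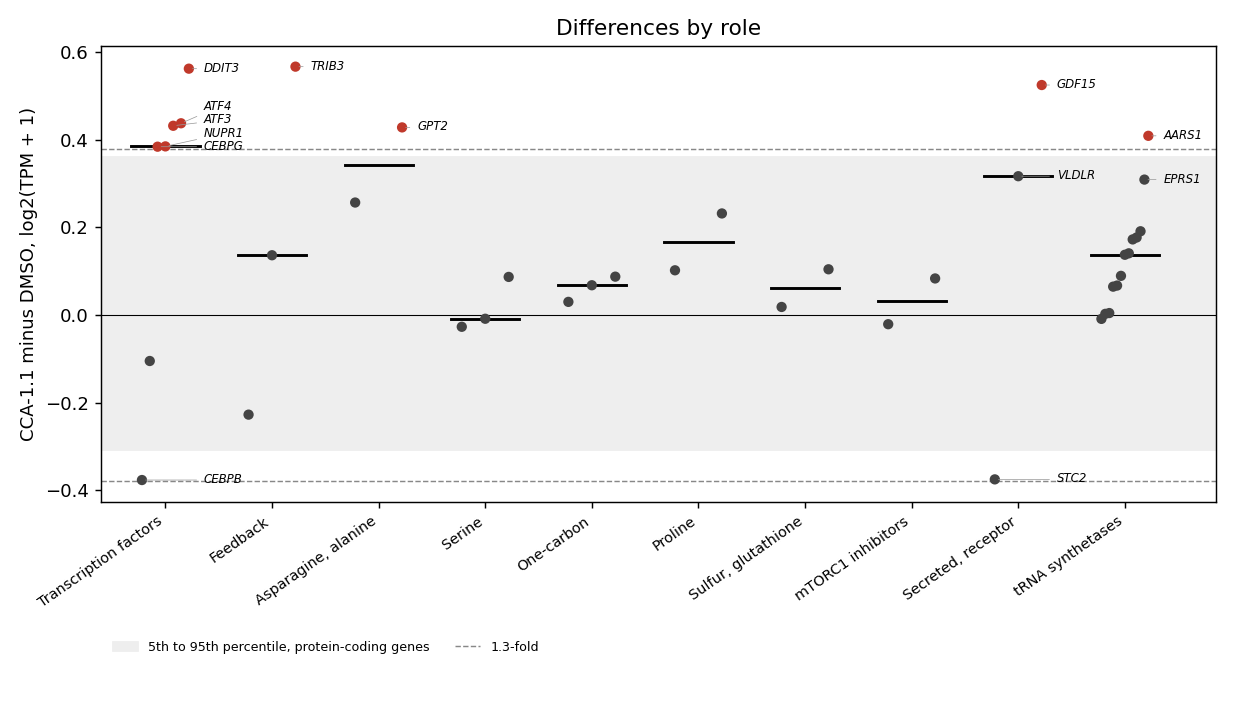
Difference between CCA-1.1 and DMSO on the log2(TPM + 1) scale for the 40 genes whose mean was at least 1 TPM, by functional group; points are genes, short bars are medians, the grey band is the 5th to 95th percentile of 12041 protein-coding genes (-0.31 to 0.36), and dashed lines mark 1.3-fold. The genes past the upper line are mostly transcription factors and TRIB3, and the serine and one-carbon enzymes lie near 0.

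Among the transcription factors, 5 of 7 were higher by more than 1.3-fold. ATF4 (Entrez identifier 468, chromosome 22 from 39520559 to 39522686 of GRCh38.p14, as for the positions of the other genes), the central activator of the response, was at 312.1 TPM under DMSO and 422.9 under CCA-1.1, a difference of 0.44. DDIT3 (Entrez identifier 1649, chromosome 12 from 57516588 to 57520517), which encodes the proapoptotic factor CHOP, was at 273.2 TPM under DMSO and 403.7 under CCA-1.1. Its difference of 0.56 was exceeded by 0.149% of the 673 protein-coding genes whose mean level was within 2-fold of its own. ATF3, a repressor and activator induced by many stresses, was at 84.95 and 114.9 TPM in the same order, a difference of 0.43.

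CEBPG, a partner of ATF4 on composite elements, was at 43.7 TPM under DMSO and 57.3 under CCA-1.1, and the stress-induced cofactor NUPR1 was at 50.8 and 66.6 TPM. These factors were thus higher together, although by less than 1.5-fold each. The remaining factors did not share this direction. CEBPB, a C/EBP factor that also serves inflammatory and differentiation programmes, had the highest level of the 7 genes under DMSO and a lower value under CCA-1.1, at 521.0 TPM under DMSO and 401.2 under CCA-1.1, a difference of -0.38 that stayed short of 1.3-fold. Of 466 protein-coding genes within 2-fold of the level of CEBPB, 3.86% had a lower difference. ATF5, a relative of ATF4 linked to mitochondrial stress, was at 24.8 and 22.99 TPM, a difference of -0.10.

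The feedback genes differed among themselves. TRIB3 (Entrez identifier 57761, chromosome 20 from 380760 to 397559), a pseudokinase that ATF4 and CHOP induce and that restrains ATF4, had the largest difference of the 40 genes, 0.57, from 27.4 TPM in DMSO to 41.1 TPM in CCA-1.1. Of 4062 protein-coding genes within 2-fold of its level, 0.369% had a larger difference. PPP1R15A (GADD34), the inducible subunit that directs protein phosphatase 1 to eIF2alpha, was at 226.2 and 248.7 TPM, a difference of 0.14. PPP1R15B (CReP), the constitutive counterpart of GADD34, was at 57.8 TPM under DMSO and 49.2 under CCA-1.1, a difference of -0.23.

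The metabolic enzymes were closer to equal in the libraries, and 1 of the 12 enzymes with a mean of at least 1 TPM passed 1.3-fold. This was GPT2, the mitochondrial alanine aminotransferase, at 10.4 TPM under DMSO and 14.3 under CCA-1.1, a difference of 0.43, and its highest transcript alone stayed short of 1.3-fold at 0.37. ASNS, which forms asparagine and carries the composite element shown above, was at 23.4 and 28.2 TPM, a difference of 0.26, short of 1.3-fold. ALDH18A1 and PYCR1, which catalyse the first and last steps of proline synthesis from glutamate, were at 37.8 and 182.6 TPM in DMSO and at 44.5 and 196.0 TPM in CCA-1.1, with differences of 0.23 and 0.10.

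PHGDH and PSAT1, of serine synthesis, were nearly equal in the libraries, and the value of PSPH depended on the transcripts used. PHGDH, the first enzyme of the pathway, was at 37.4 TPM under DMSO and 36.7 under CCA-1.1. PSAT1, the second enzyme, was at 42.9 and 42.6 TPM. PSPH, the phosphatase of the last step, was at 8.51 and 9.10 TPM, but at 5.36 and 3.74 TPM with curated transcripts only, where its difference was -0.42. Summed over all transcripts, the differences of these 3 genes ran from -0.03 to 0.09, and the summed level of the pathway was 88.8 TPM under DMSO and 88.4 under CCA-1.1. The mitochondrial folate enzymes SHMT2, MTHFD2 and ALDH1L2, which use serine to supply 1-carbon units, differed by 0.09, 0.03 and 0.07. MTHFD2, a known target of ATF4, was at 58.2 and 59.5 TPM.

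In sulfur metabolism, CTH, the enzyme that releases cysteine from cystathionine, was at 43.6 TPM under DMSO and 44.2 under CCA-1.1. CBS, which catalyses the step before it, was near the floor of the table, which is rounded to 0.01 TPM, and is not counted further. CHAC1, a glutathione-degrading enzyme and a known target of ATF4, was at 6.74 and 7.32 TPM, a difference of 0.10. Its difference was exceeded by 38.1% of the 3380 protein-coding genes within 2-fold of its level. DDIT4 (REDD1) and SESN2, stress-induced inhibitors of the growth kinase mTORC1, differed by 0.08 and -0.02, with DDIT4 at 188.7 and 199.96 TPM and SESN2 at 25.3 and 24.9 TPM.

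The upstream regions of CHAC1 and AARS1 are shown in full, since both hold TGATGCAA on the opposite strand within 250 bases of the outermost start site while their differences, 0.10 and 0.41, lie apart. The first run is chr15:40953221-40953470 on the plus strand and the second is chr16:70289507-70289756 on the minus strand of GRCh38.p14, each ending at the base before the start site, with the element in capitals.

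CHAC1: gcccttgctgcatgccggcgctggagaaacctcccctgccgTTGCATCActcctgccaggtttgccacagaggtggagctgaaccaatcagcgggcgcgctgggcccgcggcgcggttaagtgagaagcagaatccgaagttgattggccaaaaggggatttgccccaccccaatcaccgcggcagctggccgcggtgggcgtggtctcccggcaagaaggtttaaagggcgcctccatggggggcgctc
AARS1: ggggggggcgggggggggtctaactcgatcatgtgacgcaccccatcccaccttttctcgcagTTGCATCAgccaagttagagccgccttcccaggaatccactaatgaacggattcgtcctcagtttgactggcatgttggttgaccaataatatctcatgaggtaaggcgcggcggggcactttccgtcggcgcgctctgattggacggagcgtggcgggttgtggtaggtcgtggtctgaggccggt

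Of the 8 genes with the element in these windows, AARS1, ATF3 and CEBPG were higher by more than 1.3-fold, and the differences of the 8 ran from -0.23 for PPP1R15B to 0.43 for ATF3, with a median of 0.20. The ATF3 match lies before the outermost start of the gene, and whether the main ATF3 transcript begins there was not checked. Of the 23 genes that had an entry without the element and a mean of at least 1 TPM, 4 were higher, with a median of 0.08 and a range from -0.38 to 0.57. The ranges overlapped, their difference was not tested, and TRIB3, DDIT3, ATF4 and GDF15 were among the genes without a match in this window. The 9 genes without an entry had a median of 0.10, and 2 of them, NUPR1 and GPT2, were higher. Whether these 9 genes hold the element was not read.

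The secreted proteins did not share a direction. GDF15 (Entrez identifier 9518, chromosome 19 from 18386158 to 18389176), a stress cytokine that CHOP and p53 can induce, was at 1111 TPM under DMSO and 1598 under CCA-1.1, a difference of 0.52. MIR3189, a microRNA gene within GDF15, was at 30.4 and 56.7 TPM, and reads of the microRNA gene and of its host cannot be told apart here. STC2, a secreted glycoprotein induced through ATF4 in ER stress, was at 78.1 TPM under DMSO and 59.97 under CCA-1.1, a difference of -0.37. Of 2979 protein-coding genes within 2-fold of the level of STC2, 2.685% had a lower difference. VLDLR, a lipoprotein receptor, was at 5.81 and 7.48 TPM, a difference of 0.32. With curated transcripts only, VLDLR was at 2.58 and 2.74 TPM, a difference of 0.06.

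The 13 listed tRNA synthetases, which attach amino acids to their tRNAs, had small differences for the most part. Of the 13 genes, 12 had a difference above 0, as had 53.8% of all protein-coding genes. When the libraries were scaled to a median ratio of 1, 10 of the 13 genes were above 0, while the 53.8% is without this scaling. The median of the 13 genes was 0.14, or 0.08 with the highest transcript of each gene alone, and 1 passed 1.3-fold. AARS1 (Entrez identifier 16, chromosome 16 from 70252298 to 70289506), the alanyl-tRNA synthetase, was at 93.1 TPM under DMSO and 123.9 under CCA-1.1, a difference of 0.41 that 0.931% of 2148 protein-coding genes of like level exceeded. EPRS1, the fused glutamyl-prolyl-tRNA synthetase, followed with 42.5 and 52.9 TPM, a difference of 0.31. In sum the 13 genes held 1470 TPM under DMSO and 1602 under CCA-1.1, a ratio of 1.09.

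Differences from 0.14 to 0.19 were found for the synthetases of leucine, serine, valine, threonine and glycine. SARS1 was at 191.95 TPM under DMSO and 217.1 under CCA-1.1, TARS1 was at 197.3 and 217.6 TPM, and GARS1 was at 166.7 and 183.4 TPM. LARS1 (0.19) and VARS1 (0.17) had lower levels, below 50 TPM in both libraries. The other synthetases were nearly equal in the libraries. NARS1, which had the highest level of the 13 genes, was at 230.6 and 241.2 TPM, a difference of 0.06. WARS1, which interferon also induces, was at 71.1 and 75.7 TPM, a difference of 0.09. MARS1 differed by 0.07, and CARS1, YARS1 and IARS1 by 0.00, 0.00 and -0.01. With curated transcripts only, YARS1 was at 143.0 and 137.6 TPM, a difference of -0.06, so its sign depended on the transcripts used. IARS1 holds the composite element 6 bases before its start.

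**Figure D3:**
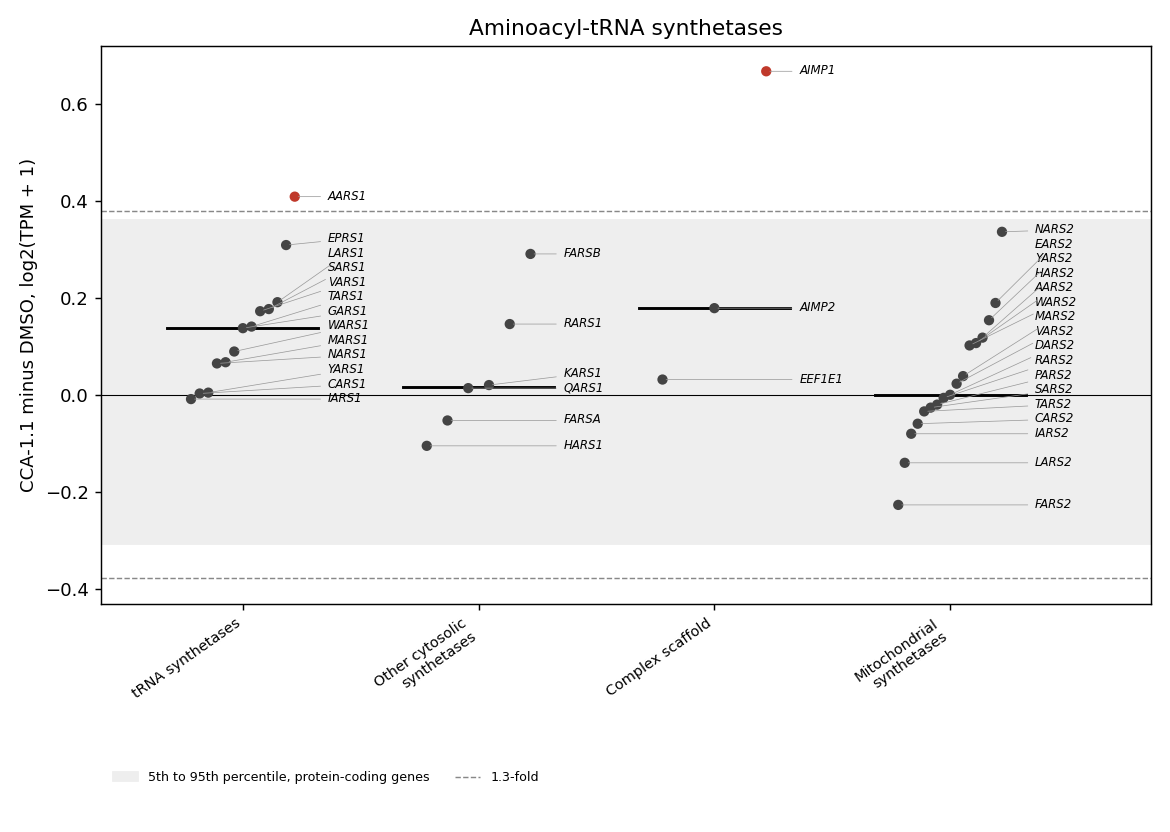
Difference between CCA-1.1 and DMSO on the log2(TPM + 1) scale for the 13 listed tRNA synthetases, 6 other cytosolic genes, 3 scaffold genes of the multi-synthetase complex and 17 mitochondrial synthetases; bars are medians, the band is the 5th to 95th percentile of protein-coding genes and dashed lines mark 1.3-fold. The medians are 0.14, 0.02, 0.18 and 0.00, and the points of the groups overlap.

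The 6 cytosolic synthetase genes outside the list that were read gave a median of 0.02, with 4 of 6 above 0 (3 with that scaling) and none past 1.3-fold. FARSB, a subunit for phenylalanine, was at 9.63 TPM under DMSO and 12.0 under CCA-1.1, a difference of 0.29. This value lies within the range of the listed genes, so the groups overlapped, and their difference was not tested. The 17 mitochondrial synthetases had a median of 0.00, with 8 genes above and 8 below 0. Of the scaffold proteins of the multi-synthetase complex, AIMP1 was at 6.01 TPM under DMSO and 10.1 under CCA-1.1, a difference of 0.67, while AIMP2 and EEF1E1 differed by 0.18 and 0.03.

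**Figure D4:**
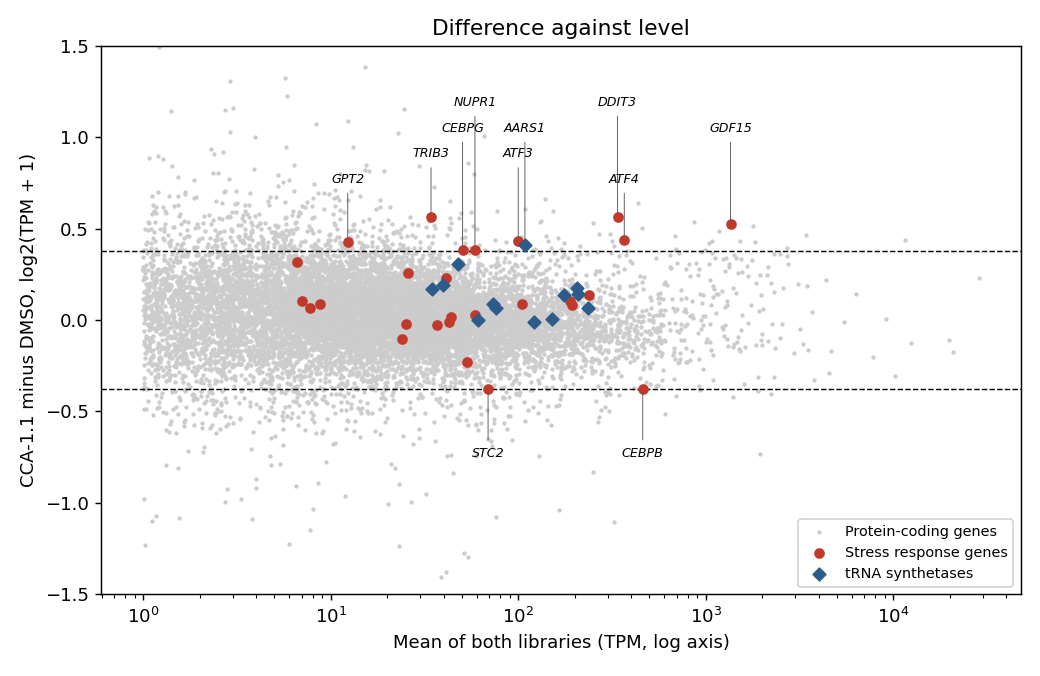
Difference between CCA-1.1 and DMSO on the log2(TPM + 1) scale against the mean of both libraries in TPM (log axis) for all 12041 protein-coding genes (grey; 9 genes lie outside the axis), the stress response genes (circles) and the tRNA synthetases (diamonds). DDIT3, ATF4 and GDF15 lie toward the right, past the dashed 1.3-fold line.

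The spread of differences was wider at low levels, with 5th and 95th percentiles of -0.37 and 0.44 between 1 and 10 TPM, and most members lay above these levels. Of 7906 protein-coding genes at 10 TPM or more, 2.61% were higher and 2.28% lower by more than 1.3-fold, against 9 higher of the 36 members at this level (25.0%). Between 100 and 1000 TPM, the 5th and 95th percentiles of all protein-coding genes were -0.30 and 0.30. ATF4, DDIT3 and AARS1 lay above that interval and CEBPB lay below it.

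At the level of single transcripts, ATF4, DDIT3 and AARS1 were higher in their main transcripts. In 26 of the 40 genes at 1 TPM or more, the transcript with the highest mean held at least 80% of the gene in both libraries. ATF4 NM_182810.3 was at 304.9 TPM under DMSO and 415.9 under CCA-1.1, 97.7% and 98.3% of the gene. DDIT3 NM_004083.6 was at 220.5 and 332.2 TPM, 80.7% and 82.3% of the gene. AARS1 NM_001605.3 was at 89.6 and 119.7 TPM. For TRIB3, NM_021158.5 was at 20.3 and 27.1 TPM, and its share of the gene went from 74.2% under DMSO to 66.0% under CCA-1.1.

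The table lists 269 transcripts of the 41 genes, of which 7 were higher and 1 was lower by more than 2-fold. Of all 177816 listed transcripts, 1.17% were higher and 1.07% lower by as much. No minimum level was applied here, and 94066 listed transcripts were at 0 TPM in DMSO and 94803 in CCA-1.1. These shares are thus not those of expressed transcripts, and the members were not set against transcripts of like level. DDIT3 NM_001195053.1 was at 3.37 TPM under DMSO and 8.86 under CCA-1.1, and GARS1 NM_001316772.1 was at 4.72 and 11.7 TPM. The 6 others, of SHMT2, PYCR1, IARS1 and MARS1, were below 4 TPM in both libraries, and 4 of them were listed at 0 in DMSO. SHMT2 held 3 of these, with NR_029417.2 at 0.98 and 3.65 TPM and NR_029415.1 at 1.93 and 0.03 TPM, while SHMT2 in sum gave 100.95 and 107.3 TPM. Kallisto divides reads shared by transcripts of a gene by estimation, so these small values depend on their neighbours. DDIT3 and MARS1 overlap by 65 bases at their ends, and MARS1 differed by 0.07. MIR616, a microRNA gene within DDIT3, was at 75.8 and 77.7 TPM, and ATF5 shares 599 bases with IL4I1 and NUP62. The strand setting of the counting is not known, so reads of overlapping genes may have been divided among them.

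Genes around the pathway were read for comparison. The kinases of eIF2alpha and the subunits of eIF2 and of its exchange factor eIF2B had a median difference of 0.03, a range from -0.20 to 0.30 and none of 12 past 1.3-fold. EIF2S3, the gamma subunit of eIF2, was at the upper end of this range, at 67.6 and 83.6 TPM. EIF2AK3 (PERK), the kinase of ER stress, was at 44.9 TPM under DMSO and 42.9 under CCA-1.1, and EIF2AK4 (GCN2), the kinase of amino acid shortage, was at 26.8 and 23.3 TPM. Targets of ATF6 and XBP1, the other branches of the unfolded protein response, had a median of -0.10 with none of 14 past 1.3-fold. HSPA5 (BiP), the main ER chaperone of these branches, was at 489.4 and 501.2 TPM. Kinase activity and XBP1 splicing are not measured by these values.

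Amino acid transporters that ATF4 regulates had a median of -0.09, with none of 8 past 1.3-fold. The cystine transporter SLC7A11 was at 17.98 TPM under DMSO and 23.1 under CCA-1.1, a difference of 0.34, and the glutamine transporter SLC38A2 was at 777.5 and 671.5 TPM, a difference of -0.21. Enzymes of the same metabolic steps that were not in the list had a median of -0.01. Of the 12 with a mean of at least 1 TPM, ALDH1L1 (3.42 and 6.05 TPM), the cytosolic relative of ALDH1L2, and SESN1 (4.13 and 5.85 TPM), a relative of SESN2 and a p53 target, were past 1.3-fold.

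**Figure D5:**
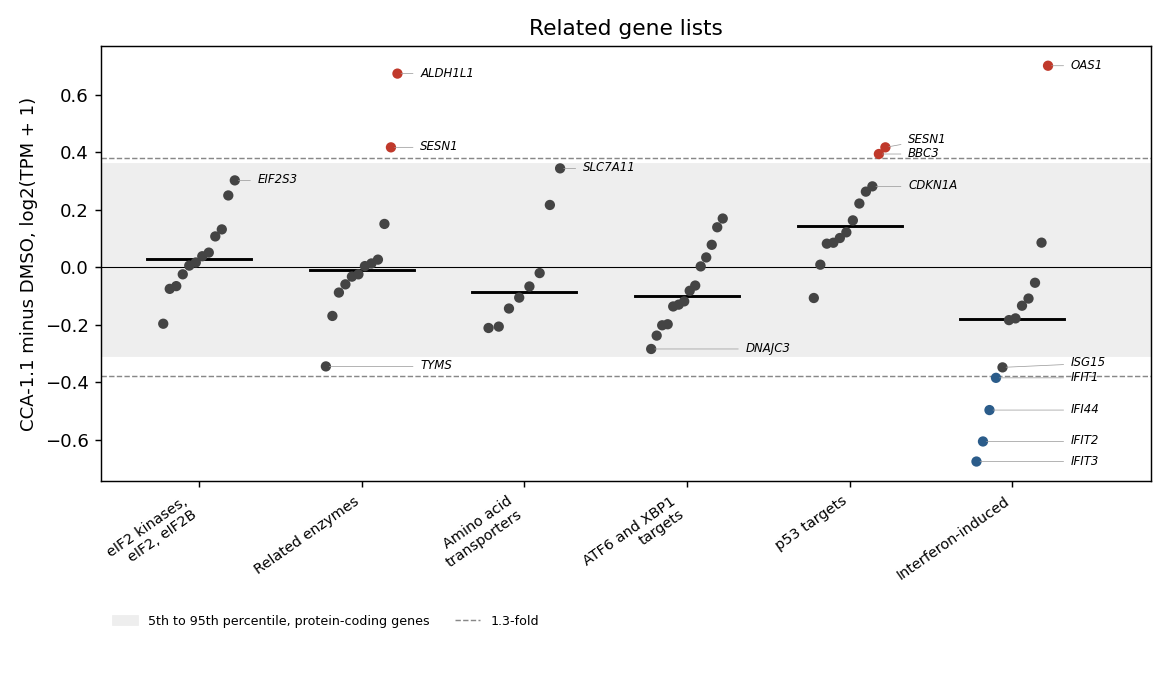
Difference between CCA-1.1 and DMSO on the log2(TPM + 1) scale for related gene lists, for genes whose mean was at least 1 TPM; points are genes, bars are medians, the band is the 5th to 95th percentile of protein-coding genes and dashed lines mark 1.3-fold. The medians run from -0.18 for interferon-induced genes to 0.14 for p53 targets, and SESN1 stands in both the enzyme and the p53 list.

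Since p53 can also induce GDF15, its targets were read beside it. Of 12 p53 targets, 11 had a difference above 0, against 53.8% of all protein-coding genes. With median-ratio scaling, 10 of the 12 targets were above 0, while the 53.8% is without this scaling. The median of the 12 targets was 0.14, and 2 passed 1.3-fold. These were BBC3 (PUMA), at 23.9 TPM under DMSO and 31.7 under CCA-1.1, and SESN1. CDKN1A (p21) was at 830.0 and 1009 TPM, a difference of 0.28. MDM2 was the target with a difference below 0, at 36.25 and 33.59 TPM, a difference of -0.11. TIGAR was nearly equal, at 5.38 and 5.42 TPM. Of 12 interferon-induced genes, IFIT1, IFIT2, IFIT3 and IFI44 were lower and OAS1 was higher by more than 1.3-fold, with a median of -0.18; WARS1 did not share this direction. The part of these programmes in the values of GDF15 and WARS1 was not tested.

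The labelled cell type was checked against markers. VIM was at 3217 TPM under DMSO and 3106 under CCA-1.1, and CD44 was at 607.4 and 472.6 TPM. TNC was at 162.7 and 96.7 TPM, a difference of -0.74, and NES was at 7.53 and 7.62 TPM. The astroglial marker GFAP and the stem cell marker SOX2 were below 2 TPM in both libraries. PTPRC, CD3E, ALB and EPCAM, markers of leukocytes, liver and epithelium, were at or below 0.18 TPM, and the endothelial marker PECAM1 was at 3.41 and 2.71 TPM.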

How the data were processed

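The authors sequenced enriched mRNA of 2 libraries, DMSO and CCA-1.1, checked reads with FastQC 0.11.9 and MultiQC 1.1 (submitters' processing notes) and quantified transcripts by Kallisto pseudo-alignment to GRCh38.p14. The deposited table holds TPM per transcript with 2 decimals. TPM keeps no read depth, so no counting error is given. The strand setting is not given in the sources used here.

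Transcripts (169966 of 177816) were assigned to symbols through RefSeq genes of that build and TPM was summed per gene. Differences used a pseudocount of 1 TPM, for genes whose mean reached 1 TPM. The calculation was tested on simulated data with the 2-fold rule only, and the 1.3-fold rule was not tested in this way. With 1 library per group there was no test, and the edgeR test of the study, which needs counts, was not applied. The members and all lists were chosen with earlier results of these data known. All 41 members were described, and genes of the other lists were named as examples; 1 gene is not reported here. Alternatives were other pseudocounts, other minimum levels, median-ratio scaling, curated transcripts and the highest transcript. Python 3.11.15, numpy 2.4.6, pandas 2.3.3 and matplotlib 3.10.9 were used.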

Additional observations from a re-analysis of the deposited data

How the results depend on the processing

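Under 7 alternatives, the median difference ran from 0.09 to 0.12 for all members, from 0.08 to 0.14 for the synthetases (lowest with the highest transcript of each gene alone) and from 0.08 to 0.14 for the other members. No member passed 2-fold under any of them. The count of members lower by more than 1.3-fold, 0 as reported, was 1 with a pseudocount of 0.1 TPM and 1 without a pseudocount (STC2 in each), 1 with curated transcripts only (PSPH) and 2 with median-ratio scaling (CEBPB and STC2). Of all protein-coding genes, 4.28%, 4.52%, 4.96% and 3.48% were lower under these settings, in the same order. Median-ratio scaling divides CCA-1.1 by 1.01. It leaves 7 members higher, without CEBPG and NUPR1, against 3.78% of all protein-coding genes. With the highest transcript of each gene alone, 8 members were higher, against 7.92% of all protein-coding genes (4.39% as reported), and 6 of these were among the 9 reported; CEBPG, GPT2 and NUPR1 were not, and ASNS and VLDLR were added. ATF4, DDIT3, ATF3, TRIB3, GDF15 and AARS1 were higher by more than 1.3-fold under all of these settings. No paired analysis was possible because each group had a single library, and none could be left out. Differences near 1.3-fold, and transcripts near 0 TPM, are limited by the unknown read depth.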
